A study of Peromyscus maniculatus and Peromyscus polionotus and Peromyscus maniculatus x Peromyscus polionotus with 18 samples.

Results

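The brain response of the oldfield mouse, P. polionotus, to a burrowing trial was measured by setting 3 whole-brain libraries made after a burrowing trial against 3 made after a control trial. The genes described are those with a mean of at least 1 TPM (transcript abundance scaled to a common library total) over these 6 libraries, which held for 14318 of 20731 genes in the table. The last gene to enter by its mean was Shmt1 at 1.0002 TPM and the first left out was Rbbp8 at 0.99972 TPM. Of the 6413 genes left out, 1686 were listed at 0 in all 6 libraries. The study measured 18 brains, 3 for each trial in P. polionotus, in the deer mouse P. maniculatus and in their F1 hybrids, and burrowing was its subject. All groups were adult males of about 50 to 80 days kept with males of their own genotype, and no transgene or drug was involved. Every animal, controls included, had gone through 2 pretest trials in large enclosures filled with sand, was then put at random into a burrowing or a control cohort, and was killed with CO2 as its test trial ended. The sources used here do not say what the control trial consisted of or how long a trial lasted. Each library is treated as 1 animal. For the parental species, p-values set a difference against the spread between animals, pooled over the 12 libraries of both species.

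P. polionotus is known for digging a long entrance tunnel that leads to a nest chamber and on to a hidden exit, and P. maniculatus for a short, simple burrow. In a rodent brain, neurons that have just fired transcribe immediate early genes such as Fos and Arc within minutes, and the protein products then act on synapses and on later genes. Exercise, arousal and fasting also reach the brain through the blood: glucocorticoids from the adrenal gland switch on genes such as Sgk1 and Fkbp5 in glia, endothelium and neurons, and fatty acids switch on Pdk4 and Angptl4 through PPAR receptors.

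The 6 libraries were alike across genes, with Spearman correlations of 0.985 to 0.996 between pairs and 14188 to 14374 genes at 1 TPM or more in each. A pair of libraries stood apart before any comparison. Control replicate 2 had a score of 30.1 on the first principal component (41.5% of the variance), where the other 5 libraries lay between -9.7 and -3.2. Burrowing replicate 3 had a score of 23.8 on the second component (28.3%), against -10.7 to 1.5 in the others. The main counts of the gene lists are therefore also given without these libraries. Brain markers were present in each library. Those of oligodendrocytes averaged 5.85 to 6.06 and those of cortical and hippocampal excitatory neurons 5.25 to 5.5 log2(TPM + 1). These lists do not show whether every library held the same parts of the brain. The hindbrain and spinal cord list, described below, averaged 0.67 and 1.33 in control replicates 2 and 3 and 1.88 to 2.13 in the others. Of 20 blood genes 1 met the level rule, but a gene missing from the table under its listed symbol also counts as not meeting it. This list thus cannot settle how much blood the samples held, and Ahsp, a red cell gene outside it, is described at the end. In whole brain, fewer cells of a type and less RNA per cell cannot be told apart.

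Burrowing left no gene that passed the test in P. polionotus. Of 14318 genes, 0 (0.0%) were called by limma at an adjusted p below 0.05 and 453 (3.16%) had an unadjusted p below 0.05, where 5% of the genes would be 716. The smallest adjusted p was 0.607. Fold changes, given as log2 of burrowing over control on the log2(TPM + 1) scale, were under 0.25 in either direction for 94.1% of genes, over 0.5 for 165 genes and over 1 for 18. The median half-width of the 95% interval was 0.21, from 0.24 for genes at 1 to 5 TPM to 0.19 for those over 50 TPM. These intervals are not adjusted for the number of genes, so their width is not the size at which a gene would pass. Much larger differences also failed the adjusted test, such as 1.7 for Hoxa5 and 1.13 for Angptl4. With 3 animals a side, the absence of called genes thus does not exclude responses of such sizes. The scale also understates changes of genes near 1 TPM. Because nothing passed, genes are described below by their values and by whether the groups overlap, meaning whether all 3 burrowing libraries lay above, or all below, all 3 control libraries. Such separation was found for 314 genes that were higher after burrowing (2.19%) and 608 that were lower (4.25%), the background against which each list below is read. Of the members of the 38 gene lists, 0 passed the test in either direction.

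**Figure D1:**
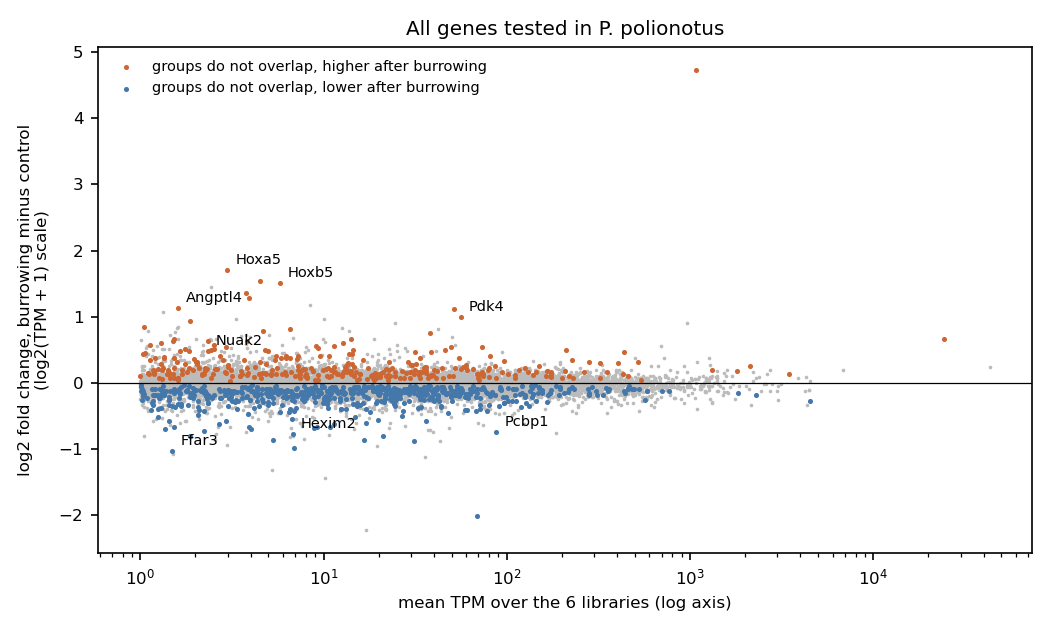
Each point is 1 of the 14318 genes, with its mean TPM over the 6 P. polionotus libraries on a log axis and its log2 fold change (burrowing minus control, log2(TPM + 1) scale) on the other. Coloured genes have groups that do not overlap, 314 higher and 608 lower; 0 passed the test, and 94.1% of genes lie within 0.25 of 0.

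The balance between higher and lower rested on the scaling. On the authors' TPM scale the median log2 fold change was -0.024, with 39.8% of genes above 0; quantile normalization gave 50.1% and scaling to a common median 52.2%. With median scaling the separated genes were 670 higher (4.68%) and 441 lower (3.08%). Leaving out control replicate 2 gave 632 higher (4.41%) and 1154 lower (8.06%), and leaving out burrowing replicate 3 gave 626 (4.37%) and 2627 (18.3%). With fewer libraries separation is easier, so these shares serve only as the backgrounds for lists counted in the same way.

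Nuak2, a kinase of the AMPK family, had the smallest p-value. It stood at 1.66, 1.64 and 2.04 TPM in the controls and at 2.92, 2.76 and 2.95 TPM after burrowing. The groups were separate and tight, with a log2 fold change of 0.48 (SE 0.08, limma adjusted p = 0.607). Angptl4, a secreted inhibitor of lipoprotein lipase that cells make when fatty acids are plentiful, was at 0.625, 0.498 and 0.778 TPM in the controls and at 2.76, 2.41 and 2.52 TPM after burrowing. All 3 burrowing animals were far above all 3 controls, by 1.13 on the log2 scale (95% interval 0.7 to 1.56, limma adjusted p = 0.607); over the alternatives tried its adjusted p ran from 0.0779, with the 6 P. polionotus libraries alone, to 1. A pseudocount of 0.1 in place of 1 gave 1.88. Pdk4, a mitochondrial kinase that turns off pyruvate dehydrogenase and so spares glucose, was at 42.6, 31.7 and 37.4 TPM in the controls and 66.1, 76.4 and 82.3 TPM after burrowing. Its lowest burrowing library was above its highest control, and its log2 fold change was 0.99 (95% interval 0.45 to 1.54, limma adjusted p = 0.997).

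Igdcc4, a membrane protein of the immunoglobulin superfamily related to the netrin receptor Dcc, showed the smallest spread of the leading genes. It was at 20.2, 19.6 and 20.5 TPM in the controls and 25.4, 24.7 and 25.4 TPM after burrowing, a difference of 0.31 (SE 0.05, limma adjusted p = 0.607). Krt18, a keratin of simple epithelia, was at 1.77, 1.66 and 1.44 against 2.87, 3.02 and 3.25 TPM, a difference of 0.63 (SE 0.11, limma adjusted p = 0.607). For both genes the 2 groups were separate. The other genes among the 10 smallest p-values with higher values after burrowing were Oaz3, an antizyme of polyamine metabolism (0.49), Hyal2, which degrades hyaluronan (0.47), Csrnp1, a nuclear protein induced by signalling (0.49), Fam166b (0.56) and Hoxa5, described with its family below. Among genes with a symbol and at least 5 TPM, the largest differences without overlap belonged to Hoxb5, Pdk4, Tinagl1 (0.67), Kctd11 (0.56) and Fam166b. Tinagl1 is a protein of the extracellular matrix and Kctd11 an adaptor of a ubiquitin ligase. Over the alternatives tried, the lowest values were 0.1 for Hoxb5, 0.08 for Kctd11, 0.8 for Pdk4, 0.45 for Tinagl1 and 0.42 for Fam166b.

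Genes with lower values after burrowing differed less clearly. Hexim2, which holds the transcription elongation kinase P-TEFb inactive, was at 8.43, 10.5 and 7.49 TPM in the controls and 6.37, 4.19 and 3.8 TPM after burrowing, a log2 fold change of -0.77 (SE 0.17, limma adjusted p = 0.997). Tnfsf10, the death ligand TRAIL, was at 1.74, 2.28 and 1.74 against 0.659, 0.87 and 0.893 TPM, or -0.69 (SE 0.15). Ffar3, a receptor for short-chain fatty acids, was at 3.25, 1.94 and 1.91 against 0.716, 0.561 and 0.6 TPM, or -1.03 (SE 0.23). In each of these 3 genes every burrowing library was below every control. Atxn3, a deubiquitinase, had 14.2, 12.9 and 13.7 against 11.8, 10.2 and 10.9 TPM, or -0.28 (SE 0.07). The remaining genes of the 10 smallest p-values on this side were Orf52b2 (-0.7), Parp10 (-0.31), the peroxisome biogenesis factor Pex16 (-0.26), Fam111a (-0.44), the histone gene Hist1h2bc (-0.31), whose reads may be shared with near-identical histone copies, and Zc3h8 (-0.25). Their limma adjusted p was 0.997 throughout. Among genes with a symbol and at least 5 TPM the largest separated differences on this side were those of Hexim2, the RNA-binding protein Pcbp1 (-0.74), Isg15, Ifit3 and the respiratory chain subunit Ndufa1 (-0.56). For Pcbp1 and Ndufa1, control replicate 2 was the highest library by far, at 155 TPM against 83.4 and 93.7 and at 35 TPM against 18.4 and 19.7 in the other controls.

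**Figure D2:**
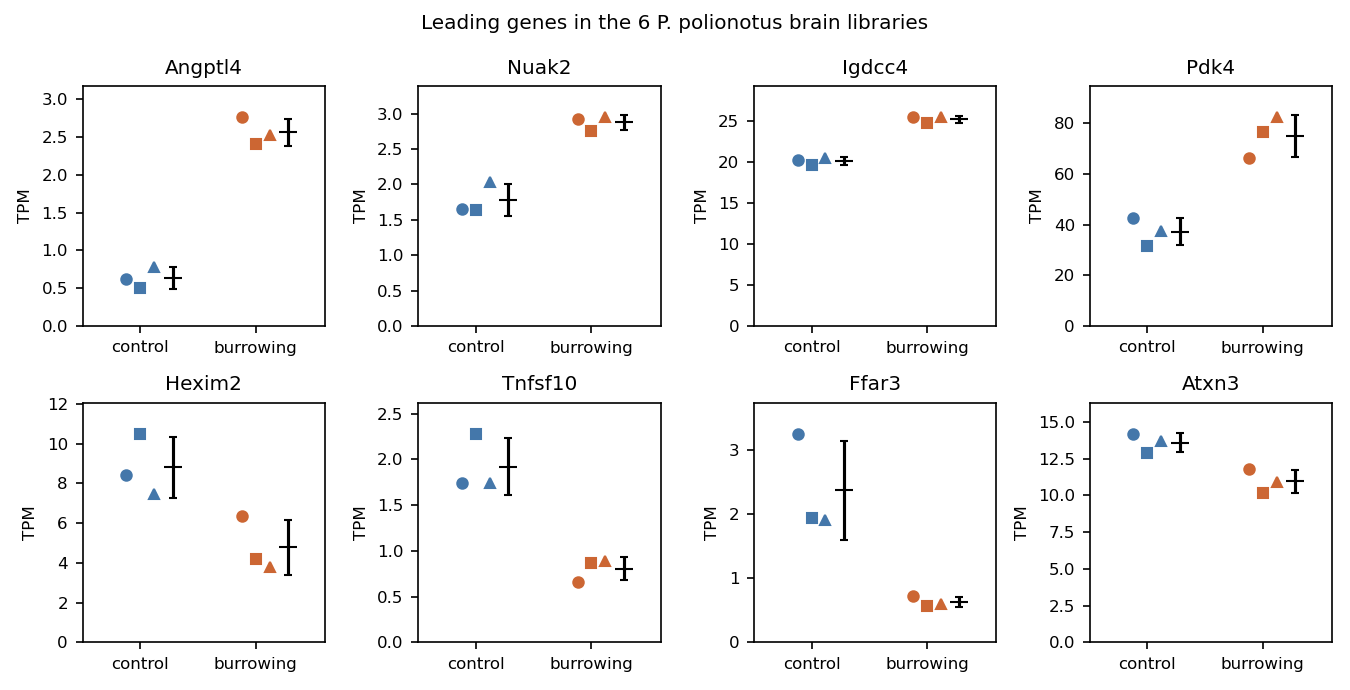
TPM of 8 leading genes in the 6 P. polionotus libraries, 1 panel each with its own axis from 0; circles, squares and triangles are replicates 1, 2 and 3, and bars show the mean with its SD. In every panel the control and burrowing libraries are separate, as for Angptl4 with controls from 0.498 to 0.778 TPM and burrowing libraries from 2.41 to 2.76 TPM.

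Fuel genes were followed with a list of 30 fasting and fatty acid oxidation genes, of which 24 were tested. Apart from Angptl4 and Pdk4, the third separated member was Ucp2, a mitochondrial carrier, at 50, 43.3 and 24.5 TPM in the controls and 52.1, 56 and 51.5 TPM after burrowing (0.49, limma adjusted p = 0.997). Control replicate 3 was the lowest library, and the difference was 0.09 with control replicates 2 and 3 left out. Cpt1a, which brings fatty acids into mitochondria for oxidation, was at 0.08 (95% interval -0.11 to 0.27). Lpl, the lipase that Angptl4 inhibits, differed by 0.03 (95% interval -0.36 to 0.42). In all, 3 of 24 members were separate and higher and 0 lower, 13 were above 0 and the median was 0.02, beside -0.02 for all genes tested. The count of 3 higher (12.5%) was the same without control replicate 2 (beside 4.41% of all genes) and without burrowing replicate 3 (beside 4.37%). In the latter case 3 members were also lower (12.5%, beside 18.3%).

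Glucocorticoid-induced genes leaned higher as a list. Of 26 listed genes 22 were tested, 20 were above 0, 5 were separate and higher (22.7% of the list), 0 were separate and lower, and the median was 0.13 (0.17 with quantile normalization). Besides Pdk4, the separated members were Sgk1, a kinase that regulates ion transport, at 187, 139 and 199 TPM in the controls and 215, 241 and 283 TPM after burrowing (0.5, 95% interval -0.13 to 1.12); Nfkbia, the inhibitor of NF-kB, at 64.4, 50.5 and 62.8 against 81.6, 76 and 102 TPM (0.54); Ddit4, an inhibitor of mTOR signalling, at 217, 175 and 204 against 285, 253 and 221 TPM (0.35); and Klf9, a transcription factor (0.13). The gap was narrowest for Ddit4, where the highest control was 217 and the lowest burrowing library 221 TPM, and limma adjusted p was 0.997 for each of these genes. Fkbp5, a chaperone of the glucocorticoid receptor, was at 17.7, 17.7 and 18.8 against 17, 22 and 28.5 TPM (0.27), so its groups overlapped. Tsc22d3, also called Gilz, did so too at 0.11, and Per1 was at 0.02. The list average was 5.32 to 5.42 log2(TPM + 1) in the controls and 5.58 to 5.59 after burrowing. Without control replicate 2, and likewise without burrowing replicate 3, 5 members were higher (22.7%) and 0 lower. The shares of all genes separate and higher were then 4.41% and 4.37%.

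Immediate early genes varied more between animals of 1 trial than between trials. Fos, the best known marker of recent firing, was at 98.3, 137 and 84.3 TPM in the controls and at 213, 105 and 80.8 TPM after burrowing, a log2 fold change of 0.22 (95% interval -0.51 to 0.96). Arc, whose protein acts at active synapses, was at 228, 477 and 213 against 847, 199 and 148 TPM (0.04, interval -1.36 to 1.43). Junb, a partner of Fos, was at 177, 193 and 205 against 413, 216 and 74.7 TPM (-0.02, interval -1.24 to 1.2). In all 3 genes burrowing replicate 1 was the highest of the 6 libraries and burrowing replicate 3 the lowest. Without burrowing replicate 1 the Fos difference was -0.17 and that of Arc -0.73, and without burrowing replicate 3 that of Junb was 0.64. The transcription factors Egr1 (-0.05), Npas4 (-0.07) and Nr4a1 (-0.29) overlapped too, and Bdnf, an activity-regulated neurotrophin, was at -0.06.

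Over the list of 39 immediate early genes, 36 were tested, 26 were above 0 and the median was 0.1. Of these, 1 (Csrnp1) was separate and higher (2.78%, near the 2.19% of all genes), and 0 were separate and lower. The list average was 5.78 to 5.91 in the controls and 6.53, 5.92 and 5.5 log2(TPM + 1) in burrowing replicates 1, 2 and 3. Csrnp1 was at 11.5, 11.6 and 12.3 TPM in the controls and 18.6, 15.6 and 17 TPM after burrowing. The largest value on the list belonged to Klf4, a zinc finger factor, at 0.67 (13.7, 11.3 and 17.1 against 33.4, 21.4 and 16.1 TPM, limma adjusted p = 0.997), followed by Maff at 0.53. Without burrowing replicate 3, all 36 members were above 0, beside 4634 of the 14318 genes, and the median was 0.29. In that setting 8 members were separate and higher (22.2%, beside 4.37% of all genes). With control replicate 2 left out 29 were above 0, beside 5711 of the 14318 genes, and the median was 0.1. Separate and higher were then 3 members (8.33%, beside 4.41%). Among 18 activity-regulated genes of the later wave 0 were separate, and their median was -0.03, which turned to 0.02 without control replicate 2 and 0.03 without burrowing replicate 3.

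Heat shock proteins and chaperones, which refold proteins after heat or other stress, had 24 tested members of 28. Of these 19 were above 0, 7 were separate and higher (29.2%) and 1 was separate and lower, with a median of 0.08. Dnajb1, the inducible partner of Hsp70, was at 240, 247 and 261 TPM in the controls and 366, 294 and 280 TPM after burrowing (0.32, limma adjusted p = 0.997). Hspb1, a small heat shock protein, was at 34.7, 37.7 and 49 against 64.3, 64.1 and 49.4 TPM (0.54), with burrowing replicate 3 barely above control replicate 3. Bag3, a co-chaperone, was at 12.6, 13.5 and 13.5 against 16.3, 14.5 and 14.6 TPM (0.18). The others were Hspa8 (0.14), Hspb6 (0.14), Fkbp4 (0.11) and Cryab (0.18). The lower member was Hsp90aa1 at -0.42, where control replicate 2, at 104 TPM, was far above the other 5 libraries (53.4 to 68.8 TPM); its value was 0.14 with the hindbrain list as a covariate. Leaving out control replicate 2 gave 10 higher (41.7%, beside 4.41% of all genes) and 1 lower (4.17%, beside 8.06%). Leaving out burrowing replicate 3 gave 9 higher (37.5%, beside 4.37%) and 2 lower (8.33%, beside 18.3%).

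Among interferon-stimulated genes, separated members were all on the lower side. Of 13 tested members 4 were separate and lower (30.8%), 0 were separate and higher, and the median was -0.04. Ifit3, an antiviral protein that binds RNA, was at 12.8, 12.9 and 14.7 TPM in the controls and 8.22, 9.81 and 6.7 TPM after burrowing (-0.66, limma adjusted p = 0.997). Isg15, a ubiquitin-like modifier, was at 15.3, 7.59 and 12.1 against 6, 7.08 and 7.18 TPM (-0.66). The gap of Isg15 between control replicate 2 and the highest burrowing library was small. Ifi44 was at -0.43 and Ifit2 at -0.23. The list average overlapped between trials, at 3.55, 3.38 and 3.58 log2(TPM + 1) in the controls and 3.28, 3.44 and 3.38 after burrowing. Without control replicate 2 there were 6 lower (46.2%, beside 8.06% of all genes) and 1 higher (7.69%, beside 4.41%), with a list median of -0.13. Without burrowing replicate 3 there were 5 lower (38.5%, beside 18.3%) and 0 higher, with a median of -0.04.

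Genes tied to locomotor behaviour in rodents, the theme of the series, stood near 0. Of 60 listed genes 50 were tested, and the median was 0.01. Members separate and higher were 0, and 3 were separate and lower (6.0%, beside 4.25% of all genes). The lower ones were Foxp1, a transcription factor of striatal and other neurons (-0.2), Dab1, the adaptor of reelin signalling (-0.12), and Epha4, an axon guidance receptor (-0.05). With median scaling 1 of the 50 was lower and 2 were higher, smaller shares than the 3.08% and 4.68% of all genes. Without control replicate 2, 6 were lower and 3 higher, larger shares than the 8.06% and 4.41% of all genes. Without burrowing replicate 3, 5 were lower and 1 was higher, smaller shares than the 18.3% and 4.37% of all genes. The dopamine receptor Drd1 was at 158, 176 and 166 TPM in the controls and 178, 163 and 185 TPM after burrowing, a difference of 0.08 (95% interval -0.21 to 0.37). The dopamine transporter Slc6a3 was at 0.14 (interval -0.16 to 0.45). Of 11 dopamine neuron genes 10 were above 0, 1 was separate and higher (9.09%, beside 2.19% of all genes), and the median was 0.09. Without control replicate 2, 3 were higher (27.3%, beside 4.41%) and 1 was lower (9.09%, beside 8.06%). Without burrowing replicate 3, 1 was higher (9.09%, beside 4.37%) and 0 were lower.

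Neuropeptide precursors had 26 tested members, of which 6 were above 0. Of the 26, 1 was separate and lower (3.85%, beside 4.25% of all genes): Ucn3, a ligand of the CRH receptor family (-0.67). Ucn3 was at 4.98, 7.67 and 2.8 TPM in the controls and 2.64, 2.75 and 2.58 TPM after burrowing. Its control replicate 3 was thus barely above the highest burrowing library. Without control replicate 2, 12 were above 0, 2 were separate and higher (7.69%, beside 4.41%) and 1 was lower (3.85%, beside 8.06%). Without burrowing replicate 3, 10 were above 0, 0 were separate and higher and 3 were lower (11.5%, beside 18.3%). Vasopressin (Avp) was at 19.2, 38.6 and 27.3 TPM in the controls and 20, 21.4 and 25 TPM after burrowing (-0.3, 95% interval -0.78 to 0.19). Oxytocin (Oxt) was at 82.9, 102 and 138 against 126, 147 and 53.8 TPM (-0.07, interval -1.03 to 0.89), and Crh, which starts the hormonal stress response, was at -0.11. All 3 overlapped between trials. Among members that overlapped, the highest value was that of Agrp (0.51) and the lowest that of Cartpt (-0.51), at 92.6 TPM in control replicate 2 and 32.5 to 45.8 TPM in the other 5. Control replicate 2 also had the highest list average, 4.98 against 4.6 to 4.73, and with control replicates 2 and 3 left out the list median went from -0.08 to 0.04. Circadian clock genes showed 0 separated members of 23 tested, with a median of -0.02. Nr1d1 was at -0.13 and Dbp at -0.15.

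**Figure D3:**
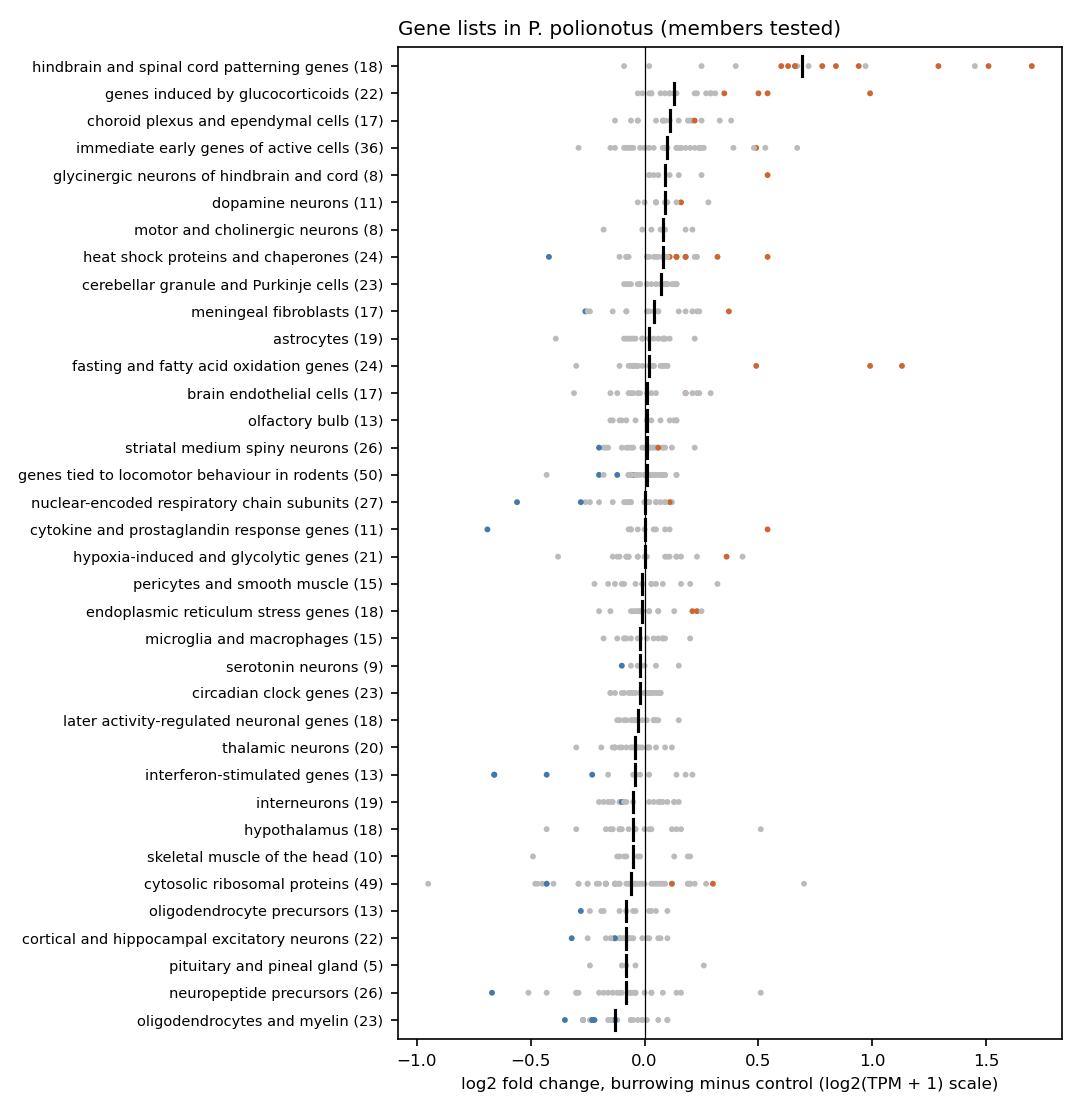
Each row is a gene list, with the number of members tested in parentheses; points are the log2 fold changes of its members in P. polionotus (burrowing minus control, log2(TPM + 1) scale), coloured where the groups do not overlap (orange higher, blue lower after burrowing), and the black bar is the list median. Lists with fewer than 5 tested members are not drawn. The hindbrain and spinal cord list lies apart at a median of 0.69, and the other medians lie between -0.13 and 0.13.

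The list that differed most was not a response list but a marker list. Of 27 genes that pattern the hindbrain and spinal cord, most of them Hox genes, 18 were tested, 17 were above 0, 9 were separate and higher (50.0%), and the median was 0.69. Hox genes encode homeodomain factors that are expressed behind the midbrain and serve as markers of caudal brain and cord. Hoxa5 was at 2.88, 0 and 0.482 TPM in the controls and 4.15, 4.83 and 5.5 TPM after burrowing (1.7, limma adjusted p = 0.997). Hoxb5 was at 6.47, 0.458 and 2.31 against 7.67, 9.45 and 8.26 TPM (1.51). Hoxa4 (1.29), Hoxd4 (0.94) and Hoxa2 (0.78) were separate too, and Hoxb8, at 3.75, 0 and 0 against 3.67, 4.06 and 3.12 TPM, overlapped through control replicate 1.

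The split ran mainly within the control group. The list average was 1.88, 0.67 and 1.33 log2(TPM + 1) in control replicates 1, 2 and 3 and 2.06, 2.04 and 2.13 after burrowing, while the 6 P. maniculatus libraries lay between 1.72 and 2.16. Control replicates 2 and 3 were thus below all other parental libraries. Without them the list median was 0.16, and 13 of its 18 members were above 0. Without control replicate 2 alone the median was 0.36 and 9 members were separate and higher (50.0%, beside 4.41% of all genes). Without burrowing replicate 3 the median was 0.72 and 10 members were (55.6%, beside 4.37%). Leaving out control replicate 1 instead, Hoxa5 (2.25, limma adjusted p = 0.0257) and Hoxb8 (2.2, limma adjusted p = 0.00661) were the 2 genes that passed. The glycine transporter Slc6a5, which marks inhibitory neurons of the hindbrain and cord, was at 2.46, 1.58 and 2.64 against 3.04, 3.43 and 4.59 TPM (0.54). All 8 tested genes of its list were above 0, with a median of 0.09, but 5 were (median 0.01) without control replicate 2, 6 (0.03) without burrowing replicate 3, 4 (0.0) without control replicates 2 and 3, and 2 (-0.05) with the hindbrain list average as a covariate. The part of this difference in the other results was not tested beyond a fit with the list average as a covariate, in which Angptl4 stood at 0.94 and 0 genes were called.

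**Figure D4:**
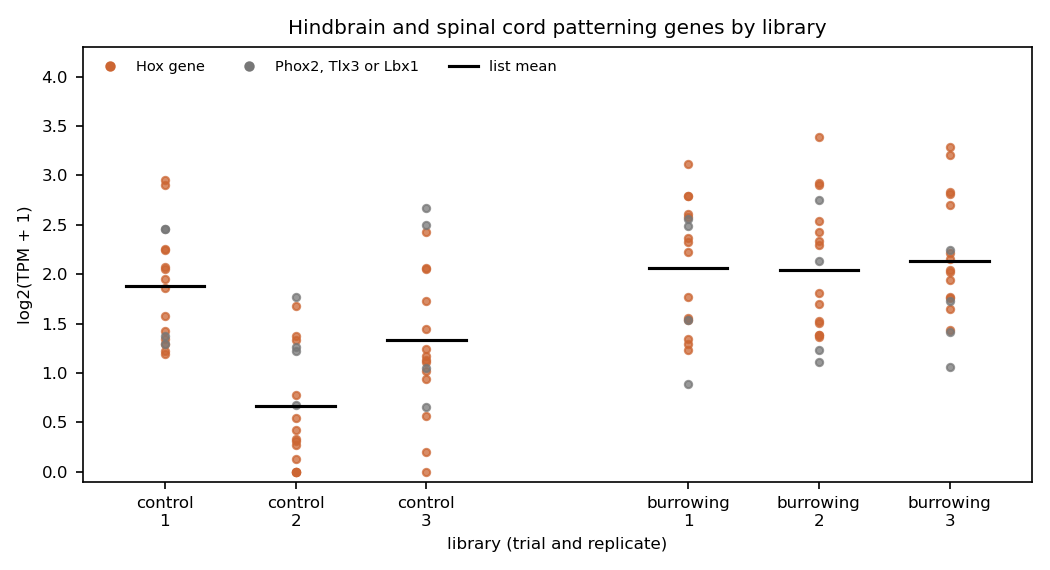
Log2(TPM + 1) of the 18 tested hindbrain and spinal cord patterning genes (points) in each P. polionotus library, with the list mean as a black bar. Control replicates 2 and 3 have means of 0.67 and 1.33, and the other 4 libraries 1.88 to 2.13.

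Myelin and oligodendrocyte genes lay on the lower side after burrowing, by small amounts. Of 23 tested members 4 were above 0, 7 were separate and lower (30.4%), 0 were separate and higher, and the median was -0.13 (-0.11 with quantile normalization). Mag, a glycoprotein of the inner myelin membrane, was at 144, 170 and 158 TPM in the controls and 126, 137 and 126 TPM after burrowing (-0.27, 95% interval -0.47 to -0.07, limma adjusted p = 0.997). Opalin, a membrane protein of mature oligodendrocytes, was at 44.9, 55.7 and 47.2 against 34.1, 38.1 and 43.2 TPM (-0.35). Mbp, a major myelin protein, was at 360, 395 and 362 against 325, 344 and 349 TPM (-0.13), and Cnp, an enzyme of myelin, was also at -0.13. Bcas1 (-0.22), Nkx6-2 (-0.23) and Gjb1 (-0.23) were the other members without overlap, all by narrow gaps. The count was 8 without control replicate 2 (34.8%, beside 8.06% of all genes) and 10 without burrowing replicate 3 (43.5%, beside 18.3%). With median scaling it was 5, beside 3.08% of all genes. The list average was 5.95 to 6.06 in the controls and 5.85 to 5.94 after burrowing. In P. maniculatus the list median was -0.1 with 0 members separate, and in the hybrids it was -0.12 over 18 members.

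Markers of other cells and regions had medians nearer 0 in the main comparison. Medians were 0.02 for 19 astrocyte genes, -0.02 for 15 microglia genes, 0.01 for 17 endothelial genes and 0.01 for 26 striatal output neuron genes. For 22 genes of excitatory neurons the median was -0.08, and 2 were separate and lower (9.09%, beside 4.25% of all genes). With control replicates 2 and 3 left out the endothelial median was 0.2 and the striatal one 0.11. For 23 cerebellar genes the median was 0.07 with 16 above 0, but it turned to -0.09 (2 above 0) without control replicate 2, -0.04 (9) without burrowing replicate 3, -0.12 (1) without control replicates 2 and 3, and -0.28 (0) with the hindbrain list as a covariate. Among 17 choroid plexus and ependymal genes the median was 0.11. Of these 1, Rarres2 (0.22), was separate and higher (5.88%, beside 2.19% of all genes). The list median was -0.03, with 6 above 0, when control replicates 2 and 3 were left out. It was 0.0 without control replicate 2 and burrowing replicate 3. Ttr, the main secreted protein of the choroid plexus, was at 0.19 and changed sign (-0.1) with control replicates 2 and 3 left out. Ribosomal protein genes showed 2 higher (4.08%, beside 2.19% of all genes) and 3 lower (6.12%, beside 4.25%) of 49. Their median was -0.06, and 0.01 without control replicate 2.

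To see where the P. polionotus response differed from that of the deer mouse, both species were fitted together and the difference between responses was tested. Of 14318 genes, 0 (0.0%) had a difference between the species at an adjusted limma p below 0.05, with 417 at an unadjusted p below 0.05. P. maniculatus alone gave 0 called genes too (289 at an unadjusted p below 0.05), with 838 genes separate and higher (5.85%) and 207 separate and lower (1.45%) on the TPM scale. In the F1 hybrids, measured as counts over both alleles, edgeR called 0 of 11928 genes (0.0%), with 90 at an unadjusted p below 0.05; DESeq2 called 2, with 87. They were Tle6 and an unnamed locus, chosen here after their values were seen.

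Genes separate and higher in P. polionotus went the same way in P. maniculatus in 59.6% of cases, beside 63.5% of all genes, and those separate and lower in 33.6%, beside 36.5%. In the hybrids the shares were 55.4% of 204 genes beside 49.4% and 57.3% of 412 beside 50.6%. Both species were separate and higher for 22 of the 314 genes (7.01%, beside 5.85% of all genes) and separate and lower for 6 of the 608 (0.987%, beside 1.45%), shares near the background. Of the 10 leading higher genes 8 were above 0 in P. maniculatus, and 2 of the 8 with a hybrid value were. Of the 10 leading lower genes 5 were below 0 in P. maniculatus and 4 of 6 in the hybrids.

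Angptl4 was separate and higher in all 3 genotypes. In P. maniculatus it was at 0.471, 0.372 and 0.312 TPM in the controls and 0.566, 0.904 and 2.1 TPM after burrowing (0.6), and in the hybrids at 1.17, 1.34 and 1.11 CPM (counts scaled to a common total) in the controls and 2.22, 4.78 and 3.45 after burrowing (1.55, edgeR adjusted p = 0.965). The response in P. polionotus was 0.53 above that in P. maniculatus, which did not pass (limma adjusted p = 0.991). Nuak2 was separate in P. maniculatus as well, at 2.33, 2.19 and 2.23 against 2.9, 3.43 and 3.03 TPM (0.34), but was at -0.28 in the hybrids. Bag3 was the third named gene separate in the same direction in both species (0.17 in P. maniculatus). Pdk4 was at 18.1, 31 and 33.9 against 33.8, 43.8 and 23.4 TPM in P. maniculatus (0.28) and at 0.48 in the hybrids, overlapping in both. Its difference between species was 0.72 (limma adjusted p = 0.991).

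**Figure D5:**
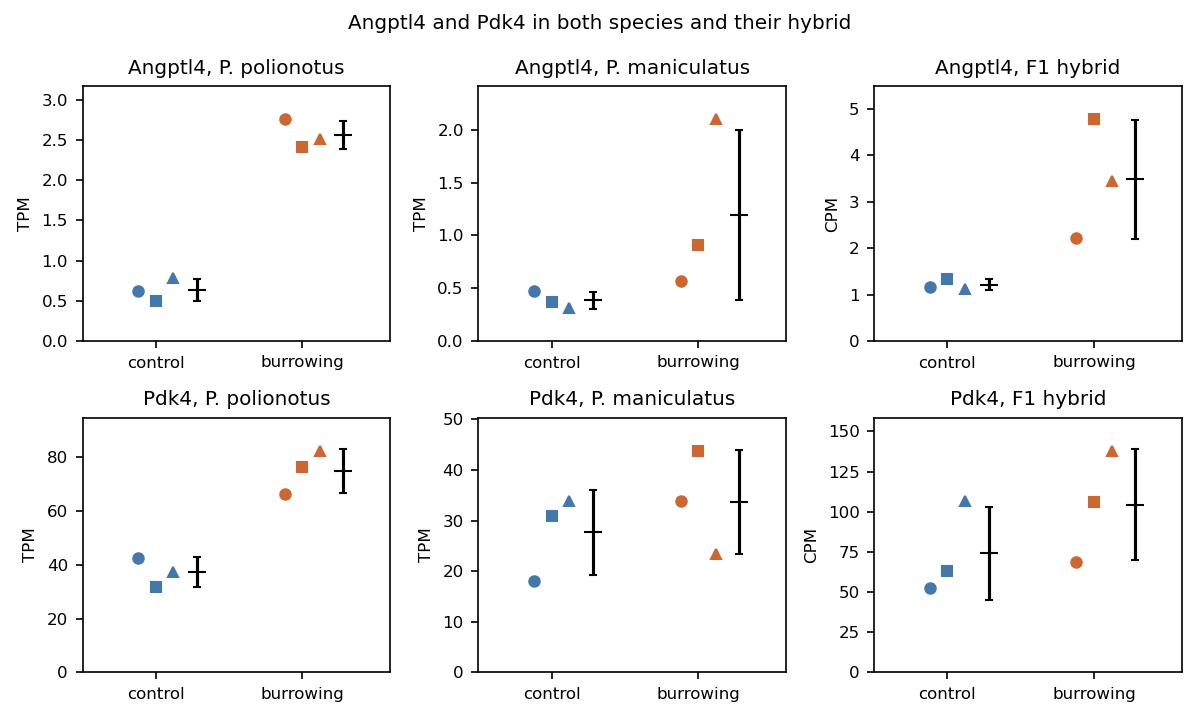
Angptl4 (top) and Pdk4 (bottom) by trial in P. polionotus and P. maniculatus (TPM) and in F1 hybrids (CPM over both alleles), with axes from 0; circles, squares and triangles are replicates 1, 2 and 3, and bars show the mean with its SD. Angptl4 is separate between trials in all 3 panels, and Pdk4 only in P. polionotus.

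The medians of the lists were set side by side over the genotypes. The glucocorticoid list had medians of 0.13 in P. polionotus, 0.11 in P. maniculatus and 0.07 over the 15 members with a hybrid value. The heat shock list had 0.08, 0.05 and 0.08, and the immediate early list 0.1, 0.1 and 0.24. In the hybrids Fos was at 0.87 (12.5, 18.1 and 31.9 against 45.1, 33 and 37.4 CPM), and in P. maniculatus at 0.01. The interferon list was at -0.04, -0.03 and 0.16. In the hybrids Ifit3 (0.69) and Isg15 (0.61) were opposite in sign to P. polionotus, but both overlapped between trials. Hybrid burrowing replicate 2 was the highest library for both genes. Ifit3 was at 7.81 CPM in it and at 2.78 to 3.23 CPM in the other hybrid libraries. Isg15 was at 4.17 CPM in it and at 0.933 to 2.59 CPM in the others. The hindbrain list was at -0.12 in P. maniculatus and -0.08 in the hybrids, against 0.69. Whether these medians differ between genotypes was not tested.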

How the data were processed

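Whole-brain RNA of 18 mice was sequenced from stranded poly(A) libraries, per the labels' protocols, and reads were aligned with STAR 2.4.2a, per the submitters' processing notes. The authors deposited TPM for the 12 parental libraries and whole-number counts per allele for the 6 hybrids. Of the genome build, the annotation, the TPM program and the allele assignment nothing is given in the sources used here. The 1 row of the TPM table that names no gene (0.886% to 1.16% of TPM in P. polionotus) was left out, and 27 rows whose names had become dates were tested but not named.

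TPM hold no depth, and precision rests on the spread between libraries alone. Hybrid libraries held 11415175 to 53906964 counts. Log2(TPM + 1) of the 12 parental libraries was tested with limma 3.58.1 in R 4.3.3 (mean trend, 1 mean per group, 8 residual degrees of freedom), for genes whose mean in P. polionotus was 1 TPM or more. Hybrid counts, summed over alleles, were tested with edgeR 4.0.16 (TMM, filterByExpr, quasi-likelihood), with DESeq2 1.42.0 as an alternative. Tests were two-sided, with Benjamini-Hochberg adjustment within a comparison and calls below 0.05. The fits were also run on simulated data whose noise was independent between genes and libraries. No outlying library was simulated, so the effect of such libraries was not covered.

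Genes were named by rule: per direction the 10 smallest p-values and the 5 largest separated differences at 5 TPM or more, 2 per list, 19 fixed genes (18 tested) and list examples. The comparison, the 38 gene lists and the alternatives were chosen with earlier results of these data known. Alternatives covered the pseudocount, filter, scaling, trend, weights, replicate block, a hindbrain covariate and left-out libraries. Counts of separated genes without control replicate 2, without burrowing replicate 3 or with median scaling were chosen after seeing the data. No promoter sequence was used here.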

Additional observations from a re-analysis of the deposited data

Results flagged for a closer look

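In 4 named genes the trials were separate in both species but in opposite directions, lower after burrowing in P. polionotus and higher in P. maniculatus. The response in P. polionotus minus that in P. maniculatus was -1.52 (SE 0.35) for Pcbp1, -0.49 (SE 0.13) for Ifit2, -0.41 (SE 0.09) for Pex16 and -0.36 (SE 0.12) for Foxp1. The limma test of the difference did not pass for any of the 4 (adjusted p = 0.991). Pcbp1 was at 83.4, 155 and 93.7 TPM in the controls and 66, 61.9 and 62.2 TPM after burrowing in P. polionotus, and at 48.6, 32.2 and 24.3 against 60.9, 52.6 and 62 TPM in P. maniculatus. Pex16 was at 36.2, 42.3 and 37.8 against 32.6, 30.8 and 33.3 TPM, and at 36.7, 34.5 and 35.9 against 40.8, 39.3 and 39 TPM. Over all genes, 42 of the 608 separate and lower in P. polionotus were separate and higher in P. maniculatus (6.91%, beside 5.85% of all genes), and 4 of the 314 separate and higher were separate and lower there (1.27%, beside 1.45%), shares near the background.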

How the results depend on the processing

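The count of genes called in P. polionotus stayed at 0 except without a filter on low values (3), and ran from 0 to 2 when 1 library was left out: 2 without control replicate 1 (Hoxa5 and Hoxb8) and 1 without burrowing replicate 3 (LOC102927525, 4630, 5040 and 4750 TPM in the controls and 3390, 3270 and 5030 after burrowing). The 3 without a filter were unnamed loci under 1 TPM, listed at 0 in at least 2 controls, and 1 of them (LOC102904919) was also the only gene called without a filter for the difference between species (1). The 2 hybrid genes of DESeq2 were not called with edgeR under RLE size factors, without a filter or with any library left out (0 each). Hybrid genes at an unadjusted edgeR p below 0.05, 90 in the main fit, depended on single libraries. They numbered 31 without hybrid control replicate 2 and 1844 without hybrid burrowing replicate 1. Deviations of P. polionotus libraries with the same replicate number correlated at 0.06, -0.07 and -0.23. With 3 libraries a group, this cannot settle whether replicate numbers pair the samples. A replicate block gave 0 called genes in P. polionotus (564 at an unadjusted p below 0.05). It gave 0 for the difference between species (478) and 0 in the hybrids (46). Unadjusted counts in P. polionotus ran from 187 with control replicates 2 and 3 left out to 1279 with array weights.

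Of 1596 values of 85 named genes under 19 alternatives, 1537 kept their sign and their side of the threshold and 2 newly passed; 57, in 21 genes, changed sign, none of which passed the test, and their cause was not tested. With the hindbrain list as a covariate these were Agrp -0.07, Avp 0.3, Bcas1 0.01, Cartpt 0.06, Crh 0.1, Dab1 0.05, Dbp 0.00, Egr1 0.23, Hsp90aa1 0.14, Hspa8 -0.03, Junb 0.26, Lpl -0.12, Ndufa1 0.08, Npas4 0.25, Oxt 0.37 and Ttr -0.04. With control replicates 2 and 3 left out they were Agrp -0.21, Avp 0.19, Crh 0.12, Egr1 0.09, Hoxb8 -0.05, Junb 0.09, Lpl -0.13, Npas4 0.17, Oxt 0.27 and Ttr -0.1. With burrowing replicate 3 and control replicate 2 left out they were Crh 0.16, Egr1 0.4, Junb 0.65, Npas4 0.31, Nr4a1 0.22 and Oxt 0.35. Array weights gave Crh 0.16, Egr1 0.06, Junb 0.21 and Oxt 0.28, and median scaling gave Junb 0.01. With 1 library left out in turn, the genes that changed sign ran from -0.73 to 0.53 (Arc), -0.24 to 0.04 (Crh), -0.39 to 0.27 (Egr1), -0.17 to 0.52 (Fos), -0.59 to 0.64 (Junb), -0.01 to 0.11 (Lpl), -0.4 to 0.16 (Npas4), -0.79 to 0.05 (Nr4a1), -0.35 to 0.37 (Oxt) and -0.1 to 0.11 (Per1). With 3 animals a side, an unadjusted half-width of 0.21 limits what single genes can show, and much larger differences also failed the adjusted test.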

Other observations

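Several genes split the 6 P. polionotus libraries within each trial, and were picked after their values were seen. Tnni3, the inhibitory troponin subunit of heart muscle, was at 470, 357 and 10 TPM in the controls and 386, 12.9 and 435 TPM after burrowing, and at 5.51 to 10.2 TPM in P. maniculatus. Slc35f5, a predicted solute carrier, was low in the same libraries, control replicate 3 (13.2 TPM) and burrowing replicate 2 (12.6 TPM), against 51.9 to 62.1 TPM in the other 4 and 11 to 13 TPM in P. maniculatus. The deviations of this pair of libraries from their group means had the highest correlation of the 9 pairs across trials, at 0.3. Cetn4, a centrin, was at 3.12, 17.3 and 3.88 TPM in the controls and 4.27, 15.5 and 15.6 TPM after burrowing. Rnase12 was high in control replicate 2 (22.8 TPM) and burrowing replicate 3 (37.4 TPM) and at 4.58 to 5.99 TPM in the others.

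Other large differences, also picked after their values were seen, were uneven between libraries. C3, a central complement component, was at 3.96, 4.73 and 3.97 TPM in the controls and 4.31, 13.3 and 20.1 TPM after burrowing (1.17, limma adjusted p = 0.997). Ahsp, the chaperone of alpha globin in red cell precursors, was at 3.4, 0 and 3.19 against 4.49, 7.91 and 8.15 TPM. The unnamed locus LOC102923933 had the largest value of all tested genes (4.73), at 952, 0 and 265 TPM in the controls and 2050, 2010 and 1140 TPM after burrowing.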
